A study of Mus musculus with 6 samples.

Results

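Pitx1, Barx1, Msx1, Msx2, Osr1, Osr2, Prrx1 and Twist1 are transcription factors of the facial and jaw mesenchyme, and their expression was read by gene symbol from the 3′ mRNA count tables of cultured mouse embryonic submandibular glands (eSMGs). All 8 symbols were found once each among the 23260 genes of the 6 libraries, and 7 of them passed the filter on low counts. The eSMGs came from ICR mouse embryos at embryonic day 14, with no genetic change named in the labels. They were cultured ex vivo for 6 h without inhibitor (control, 3 libraries) or with 50 µM AMD3100, a small-molecule antagonist of the chemokine receptor CXCR4 (AMD3100-treated, 3 libraries). A library was made from a tube of pooled glands, at most 10 of them, with epithelium and mesenchyme together. Library totals were 11532946, 13127539 and 10869528 counts for control replicates 1, 2 and 3, and 14393031, 11358828 and 9051595 counts for AMD3100 replicates 1, 2 and 3. The labels do not say whether the tubes came from separate litters or culture days, so the p-values below refer only to the spread between these samples. edgeR estimates that spread for each gene with information shared over all genes tested. In such bulk tissue, fewer cells of a type and less RNA per cell cannot be told apart.

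The mesenchyme around the salivary bud derives from the cranial neural crest, and it sends signals that make the epithelium branch. Homeodomain proteins divide this tissue into regions. PITX1 and BARX1 mark the proximal, molar-side part of the first arch, MSX1 and MSX2 act downstream of bone morphogenetic proteins (BMPs) towards the distal tip, and PRRX1 is spread through facial and limb mesenchyme. OSR1 and OSR2 are zinc finger factors of the odd-skipped family, known from palate, tooth and urogenital mesenchyme. TWIST1 is a basic helix-loop-helix (bHLH) factor that keeps neural crest cells mesenchymal and binds DNA with E proteins, while ID proteins compete for those partners.

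In GRCm38.p6 (mm10), Barx1 lies at chr13:48663036-48666507, Msx2 at chr13:53466881-53472780 and Pitx1 at chr13:55825044-55836190. Msx1 lies at chr5:37820491-37824585, Osr1 at chr12:9574442-9581500, Twist1 at chr12:33957671-33959831, Osr2 at chr15:35296098-35303305 and Prrx1 at chr1:163245119-163315145. The RefSeq promoter table held 5 of the 8 genes. Shown are the 250 bases before the RefSeq start of Barx1 and Msx1, the genes whose levels differed most between libraries and in opposite directions, and of Twist1, the gene of the 8 whose call between treatments changed once replicate numbers were paired. The windows are chr13:48662786-48663035 (plus strand) for Barx1, chr5:37824586-37824835 (minus strand) for Msx1 and chr12:33957421-33957670 (plus strand) for Twist1. Capitals mark every match on either strand to TATAAA (the TATA box), CCAAT (the box bound by NF-Y), GGGCGG (the GC box), CANNTG (the E-box of bHLH proteins) or TAATTA (a homeodomain core). A match on the opposite strand reads ATTGG for the box of NF-Y, and CCGCCC for the GC box.
Barx1: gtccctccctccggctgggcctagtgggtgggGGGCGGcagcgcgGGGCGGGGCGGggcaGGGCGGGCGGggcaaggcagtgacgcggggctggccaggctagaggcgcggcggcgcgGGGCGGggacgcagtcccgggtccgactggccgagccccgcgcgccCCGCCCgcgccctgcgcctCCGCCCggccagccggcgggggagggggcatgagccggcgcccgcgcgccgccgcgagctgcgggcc
Msx1: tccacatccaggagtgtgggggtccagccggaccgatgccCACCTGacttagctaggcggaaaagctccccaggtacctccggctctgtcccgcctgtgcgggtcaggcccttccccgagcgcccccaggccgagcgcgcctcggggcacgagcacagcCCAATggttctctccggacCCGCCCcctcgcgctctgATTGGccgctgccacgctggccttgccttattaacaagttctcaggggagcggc
Twist1: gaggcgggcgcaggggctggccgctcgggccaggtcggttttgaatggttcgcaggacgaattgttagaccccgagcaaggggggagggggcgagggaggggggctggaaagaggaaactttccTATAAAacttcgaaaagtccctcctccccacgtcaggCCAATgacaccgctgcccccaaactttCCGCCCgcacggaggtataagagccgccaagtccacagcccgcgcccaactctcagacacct

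The Barx1 window held 8 GGGCGG matches, some of which share bases, and none of the other letters. Its GC content was 85.6%, and 99.9% of the 32851 RefSeq windows of this length had a lower one (median 52.4%). The Msx1 window had a GC content of 68%, with CCAAT at 91 and 54 bases before the start, GGGCGG at 72 and an E-box at 210. In the Twist1 window, at 62.4% GC, TATAAA stood 126, CCAAT 89 and GGGCGG 62 bases before the start. Of all windows, 12.4% held TATAAA and 33.9% held the box of NF-Y. The GC box was in 32.7%, the E-box in 66.2% and the homeodomain core in 4.84%. These matches describe the letters in the windows and were not tied to any measurement here.

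Expression is given as TMM-normalized CPM, which is counts scaled to the library total after edgeR's trimmed-mean correction, and a 3′ kit reads each transcript near its end, so no division by gene length was made. Barx1 had the highest mean of the 8 genes, at 473 CPM over the 6 libraries, and ranked 181 among the 13610 genes tested. Pitx1, Osr1 and Prrx1 followed at 165, 162 and 147 CPM, with ranges over the libraries that overlapped each other. Osr2 stood at 84.6 CPM, Twist1 at 13.8 and Msx1 at 4.47. Msx2 was close to absent, with 0 counts in 5 libraries and 1 count in AMD3100 replicate 3. A count of 0 allows up to 3 counts, or 0.173 to 0.299 CPM in those 5 libraries, and this limit covers counting error only. The 8 genes together gave 1249, 1287 and 690 CPM in control replicates 1, 2 and 3, and 1279, 1169 and 632 CPM in AMD3100 replicates 1, 2 and 3. Both replicate 3 libraries were thus low, one in each group.

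**Figure D1:**
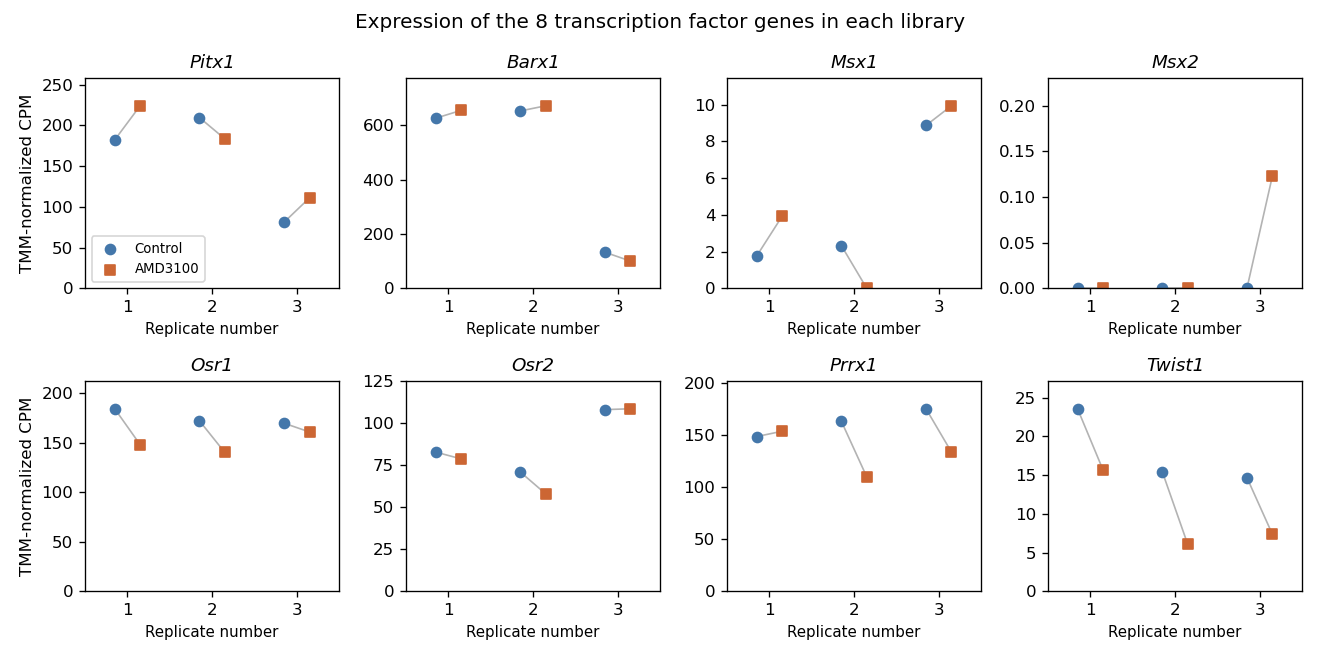
Expression of the 8 genes in TMM-normalized CPM (y axis, from 0, own scale per gene) against replicate number (x axis), with control as circles and AMD3100-treated as squares, and a line joining libraries of the same number. Barx1 and Pitx1 are low and Msx1 and Osr2 high in both replicate 3 libraries, while Twist1 is lower in the AMD3100-treated library of each number.

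The comparison of AMD3100-treated with control eSMGs asks whether blocking CXCR4 for 6 h changed these regulators. Of the 7 genes tested, 0 passed an unadjusted p of 0.05 with a fold change over 1.5 in edgeR's quasi-likelihood test, where 228 of 13610 genes (1.68%) did. After Benjamini-Hochberg adjustment edgeR called 0 of the 7 and 0% of all genes, and the adjusted p was 1 for each of the 7. DESeq2 also called 0 of the 7 at either threshold, where it called 479 genes at the unadjusted and 5 at the adjusted one. The median log2 fold change of the 7 was −0.095, with 3 genes higher and 4 lower (between −0.31 and −0.17 with 1 library left out), and that of all genes tested was 0.021. The 3 libraries of one group lay wholly below those of the other for 1 of the 7 genes, Osr1, and 7.44% of all genes tested had groups that did not overlap.

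**Figure D2:**
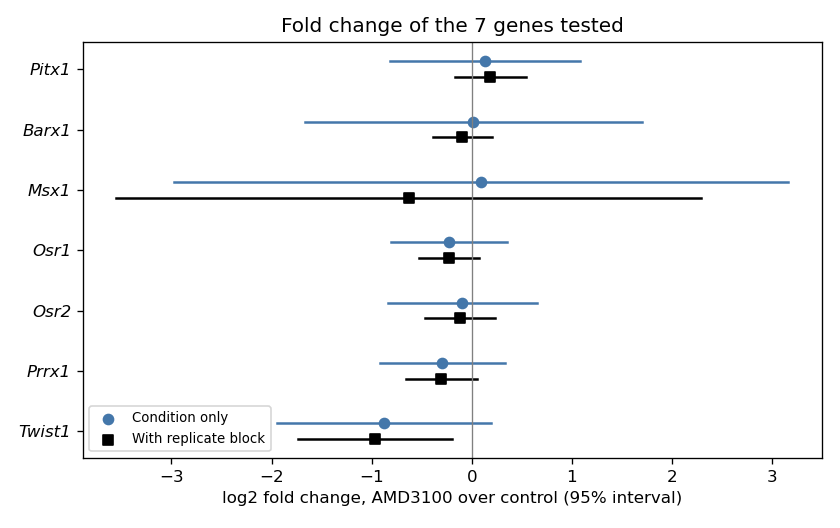
The log2 fold change of AMD3100-treated over control (x axis) of the 7 genes tested, with 95% intervals as bars, from edgeR with condition only (circles) and with replicate number as a block (squares). The intervals with condition only all include 0, and with the block that of Twist1, from −1.74 to −0.20, does not.

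Barx1, a homeobox gene of proximal jaw, tooth and stomach mesenchyme, stood at 626, 653 and 132.5 CPM in control replicates 1, 2 and 3, and at 655, 672 and 100.1 CPM in the AMD3100-treated ones. The 4 libraries of replicates 1 and 2 lay within a narrow band, and both replicate 3 libraries fell far below it, so that the groups overlapped fully. Its log2 fold change was 0.016 (SE 0.74, 95% interval −1.66 to 1.70, edgeR unadjusted p = 0.983). With replicate number as a block it was −0.095, and the interval narrowed to −0.39 to 0.20. Mean expression was 5.60-fold higher in replicates 1 and 2 than in replicate 3.

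Pitx1, a paired-like homeobox gene of the first arch and hindlimb, was at 182, 209.6 and 81.2 CPM in control and at 224, 183.5 and 111 CPM in AMD3100-treated eSMGs. It was likewise lowest in the replicate 3 libraries, 2.08-fold below the mean of the others. Between the groups, the log2 difference was 0.13 (SE 0.42, interval −0.82 to 1.08, edgeR unadjusted p = 0.758), and 2 of the 3 pairs of the same number were higher with AMD3100.

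Msx1, a homeobox gene induced by BMPs in tooth and palate mesenchyme, drew 20, 32 and 89 reads in the control libraries, 68, 0 and 81 reads in the AMD3100-treated ones, or 1.75, 2.33 and 8.88 CPM and 3.92, 0 and 9.95 CPM. The replicate 3 libraries were the highest of each group, and AMD3100 replicate 2 had no read. Its log2 fold change of 0.094 had an SE of 1.35 and an interval from −2.97 to 3.16, so neither direction of change could be read from these libraries. The SD of its log2 CPM between replicates was larger than that of 98.7% of the genes tested. Msx1os (chr5:37820564-37822751), an antisense gene that overlaps 227 of the last 300 bases of Msx1 in RefSeq, was listed at 44, 32 and 89 reads in the control libraries and at 82, 0 and 81 reads in the AMD3100-treated ones. Those equal the reads of Msx1 in 4 of the 6 libraries. The strand setting of the counting is not given in the sources used here, so reads of Msx1 and Msx1os cannot be told apart.

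Prrx1, a paired-related homeobox gene of loose connective tissue progenitors, was at 148.5, 163 and 175 CPM in control and at 153.6, 109.9 and 134 CPM in AMD3100-treated eSMGs. Its highest level was 1.60 times its lowest, and the groups overlapped through AMD3100 replicate 1. For Prrx1 the log2 fold change was −0.29 (SE 0.27, interval −0.91 to 0.33, edgeR unadjusted p = 0.311).

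Osr1 was at 184, 172 and 169.5 CPM in control (175 ± 7.82, SD, n = 3) and at 147.9, 140.0 and 161 CPM in AMD3100-treated eSMGs (149.5 ± 10.5, SD, n = 3). All AMD3100-treated libraries lay below all control libraries, by a small margin between 161 and 169.5 CPM. The log2 fold change was −0.23 (SE 0.26, interval −0.81 to 0.35, edgeR unadjusted p = 0.397), and with the block the unadjusted p was 0.119. Osr1 was the steadiest of the 7 genes. Its SD between replicates, 0.084 on the log2 CPM scale, was larger than that of only 0.353% of the genes tested, for which the median was 0.63. The SE and p of Osr1 also draw on the spread of other genes, so they do not reflect this small SD alone. The study used Osr1 as its mesenchyme marker in quantitative PCR, and its primers are shown because they read another part of the transcript than these libraries.
Osr1 forward: tactctttccttcaggcagtga
Osr1 reverse: gatcgaggcaagtgcatgg
On the 2010-base Osr1 transcript of GENCODE vM1 the primers bound a product of 140 bases, from 396 to 535, that ended 1475 bases before the 3′ end.

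Osr2, the relative of Osr1, was at 82.9, 71.0 and 108.2 CPM in control and at 78.9, 58.0 and 108.7 CPM in AMD3100-treated eSMGs. The replicate 3 libraries were the highest of both groups and almost equal to each other. For Osr2 the log2 fold change was −0.095 (SE 0.33, interval −0.84 to 0.65, edgeR unadjusted p = 0.780). The CPM of Osr1 was 2.22, 2.42 and 1.57 times that of Osr2 in control and 1.88, 2.42 and 1.48 times in AMD3100-treated eSMGs.

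Twist1 drew 269, 212 and 147 reads in the control libraries and 272, 66 and 60 reads in the AMD3100-treated ones. Its expression was 23.6, 15.4 and 14.7 CPM (17.9 ± 4.92, SD, n = 3) and 15.7, 6.08 and 7.37 CPM (9.71 ± 5.20, SD, n = 3). It was lower with AMD3100 in 3 of the 3 pairs of the same number, but AMD3100 replicate 1 lay above control replicates 2 and 3, so the groups overlapped. Without regard to number, the log2 fold change was −0.87 (SE 0.47, interval −1.94 to 0.19, edgeR unadjusted p = 0.0970). With replicate number as a block it was −0.97 (SE 0.34, interval −1.74 to −0.20, edgeR unadjusted p = 0.0193, adjusted p = 0.703), which passes the unadjusted threshold. Twist1 was the 1 gene of the 7 called in that fit, where 598 genes (4.39%) were. Without AMD3100 replicate 1 the value was −1.41 (edgeR unadjusted p = 0.0219), and from replicates 1 and 2 alone it was −0.84 (edgeR unadjusted p = 0.145).

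Barx1, Pitx1, Msx1 and Osr2 differed more between replicate 3 and the other libraries than between treatments, while for Osr1, Prrx1 and Twist1 the difference between treatments was the larger. The control and AMD3100-treated libraries of replicate 3 resembled each other across genes (Pearson r = 0.954 of log2 CPM) more than any other pair of libraries did (0.813 to 0.902). This r is across genes, which are not independent replicates, and the replicate 3 difference is described without a test. Both replicate 3 libraries lay below the other 4 for Barx1 and Pitx1, as they did for 21.1% of the genes tested. They lay above the other 4 for Msx1 and Osr2, as they did for 23.1%. The replicate 3 mean of log2 CPM minus that of the other libraries was −2.50 for Barx1, a larger difference than that of 96.9% of the genes tested. It was 2.83 for Msx1, larger than 98.2%, although Msx1 had few reads. For Osr1 and Prrx1 it was 0.045 and 0.11, smaller than for more than 90% of the genes tested. Pitx1, Osr2 and Twist1 lay between, at −1.07, 0.59 and −0.39.

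**Figure D3:**
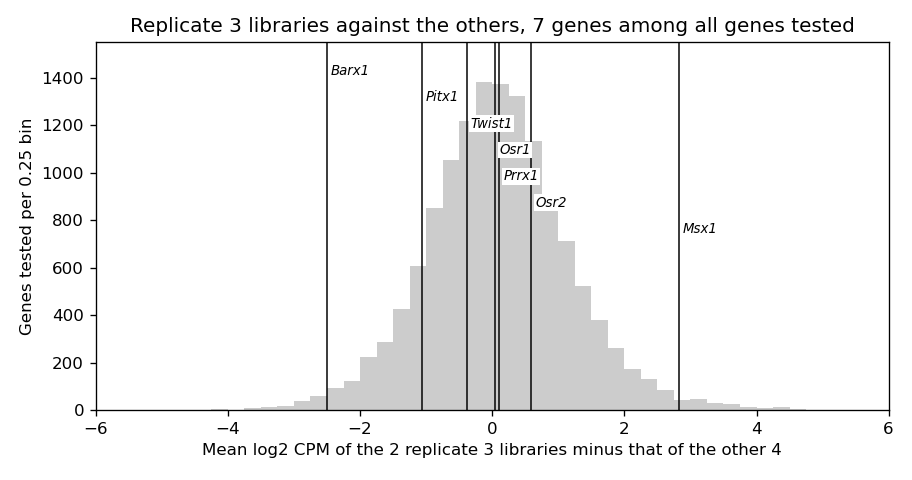
Histogram of the 13610 genes tested by the mean log2 CPM of the 2 replicate 3 libraries minus that of the other 4 (x axis, bins of 0.25; y axis, genes per bin), with a line for each of the 7 genes. Barx1 at −2.50 and Msx1 at 2.83 stand in opposite tails, and Osr1 and Prrx1 near 0.

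The order of the genes changed with it. Barx1 made up 50.1%, 50.8% and 19.2% of the summed CPM of the 8 genes in control replicates 1, 2 and 3, and 51.2%, 57.5% and 15.8% in the AMD3100-treated ones. Osr1 made up 14.7%, 13.4% and 24.6%, and 11.6%, 11.97% and 25.5%. The level of Barx1 was 3.40 and 3.80 times that of Osr1 in control replicates 1 and 2 but 0.782 times in replicate 3. With AMD3100 the same ratios were 4.43, 4.80 and 0.623. In AMD3100 replicate 3, Barx1 lay below Osr1, Prrx1, Pitx1 and Osr2.

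**Figure D4:**
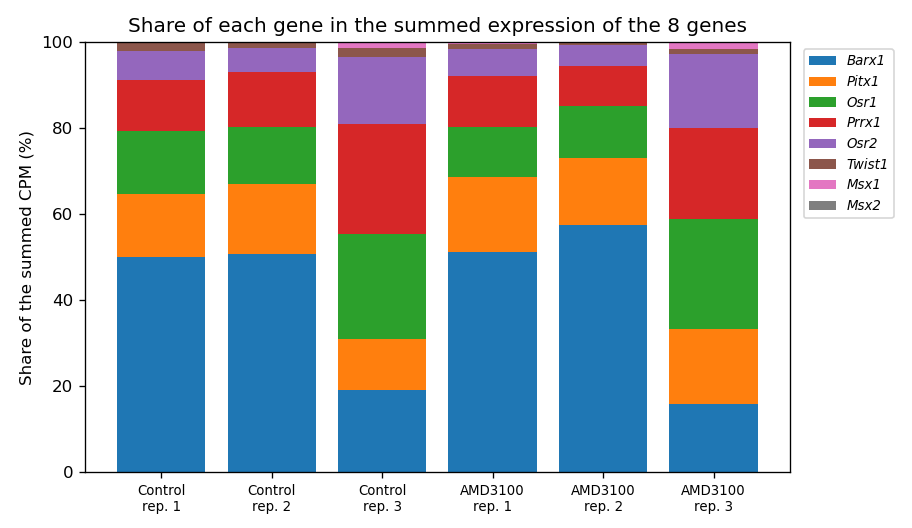
Share of each gene in the summed TMM-normalized CPM of the 8 genes (y axis, percent) in each of the 6 libraries (x axis). Barx1 takes 50.1% to 57.5% in replicates 1 and 2 and 15.8% to 19.2% in replicate 3 of both groups, where Osr1, Prrx1 and Osr2 take larger shares.

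Markers of the tissues in a gland tube moved with replicate 3 as well. Of 10 mesenchyme markers, 5 were below and 1 above in both replicate 3 libraries. Their summed level was 4301, 4255 and 2027 CPM in control and 4315, 4358 and 1736 CPM in AMD3100-treated eSMGs, led by the collagen gene Col3a1, at 1403, 1421 and 406.5 CPM and 1409, 1393 and 414.7 CPM. The 3 collagen genes carried most of the fall, with sums of 3290, 3279 and 1124 CPM and 3296, 3247 and 1039 CPM, while the other 7 markers summed to 1011, 976 and 903 CPM and to 1019, 1111 and 697 CPM. Lum, a proteoglycan gene, was the marker higher in both replicate 3 libraries. Markers of skeletal muscle went the other way in 6 of 6 genes, with sums of 106.7, 107.5 and 778 CPM in control and 66.6, 46.6 and 914 CPM in AMD3100-treated eSMGs. In the replicate 3 libraries most of this was Myog, the muscle differentiation factor myogenin, at 41.1, 40.0 and 521 CPM and 13.9, 9.96 and 485 CPM. Of 10 epithelium markers, 6 were below in both replicate 3 libraries, and the summed level was 1941, 1886 and 1331 CPM in control and 2306, 1960 and 3320 CPM in AMD3100-treated eSMGs. The last value came mainly from the keratin gene Krt15, the most abundant of the list, at 1042, 1012 and 888 CPM and 1367, 1016 and 2472 CPM. None of the mesenchyme, muscle or epithelium markers was at 0 in all 6 libraries. The part of these tissues in the levels of Barx1, Pitx1, Msx1 and Osr2 was not tested.

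**Figure D5:**
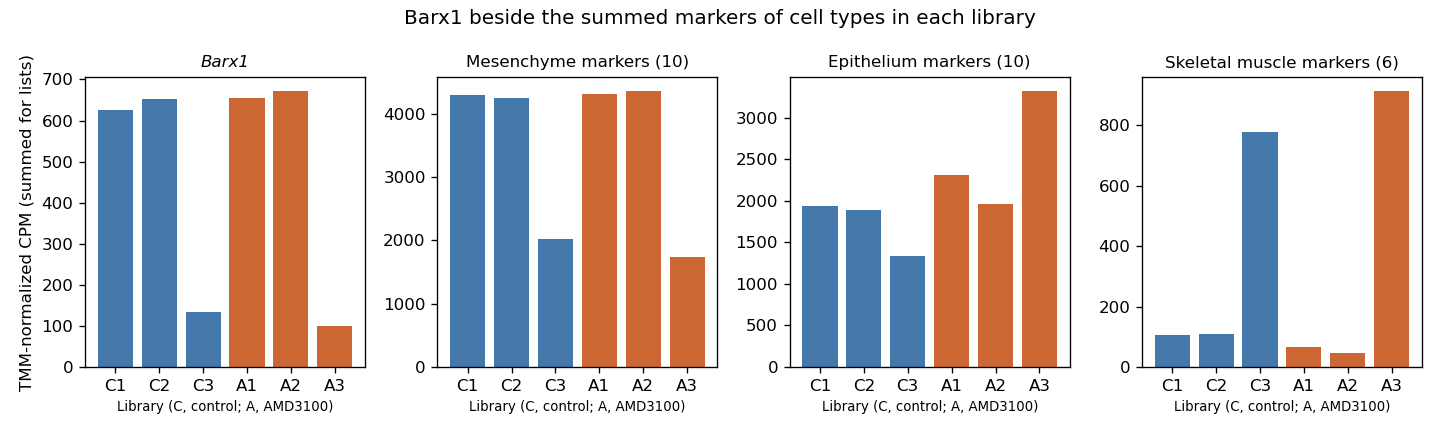
Barx1 and the summed markers of mesenchyme, epithelium and skeletal muscle in TMM-normalized CPM (y axis, from 0) in each library (x axis; C, control; A, AMD3100; the digit is the replicate number). Barx1 and the mesenchyme sum, through its collagen genes, are low and muscle markers high in C3 and A3, and epithelium markers are highest in A3, at 3320 CPM.

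Cartilage and bone could also lie near a dissected gland. The 6 cartilage markers summed to 71.0, 81.9 and 30.0 CPM in control and 89.1, 60.8 and 18.3 CPM in AMD3100-treated eSMGs, with Col9a1, a collagen of cartilage, the most abundant, and edgeR called 0 of the 3 that could be tested. The 5 bone markers summed to 26.5, 21.9 and 41.2 CPM and to 22.4, 14.4 and 31.0 CPM. Most of this was Spp1, which other tissues express too, except in AMD3100 replicate 2, where Spp1 was at 6.54 CPM. Of the osteoblast genes, Sp7 had 1 count in 1 library, Ibsp 2 counts in 1 library and Bglap 6 and 1 counts in 2 libraries. Alpl, which osteoblasts share with other cells, was present at 5.08, 4.88 and 3.69 CPM in control and at 2.13, 7.28 and 2.82 CPM in AMD3100-treated eSMGs.

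Close relatives of these genes were read in the same fit, and edgeR called 0 of Prrx2, Barx2 and Twist2. Prrx2 was at 17.9, 31.8 and 107 CPM in control and at 32.1, 15.6 and 85.7 CPM in AMD3100-treated eSMGs. It was high in both replicate 3 libraries, unlike Prrx1, so that its level was 0.120, 0.195 and 0.610 times that of Prrx1 in control and 0.209, 0.142 and 0.641 times with AMD3100. Barx2, a relative known from gland epithelium, was at 51.7, 74.7 and 58.0 CPM and at 30.5, 59.5 and 34.1 CPM. Its log2 fold change was −0.57 (edgeR unadjusted p = 0.132), and with the replicate block −0.61 (edgeR unadjusted p = 0.00988, adjusted p = 0.583), which changes the call. The unblocked value was −0.92 and called without AMD3100 replicate 2, and −0.39 without AMD3100 replicate 1. Barx2 did not share the low level of Barx1 in replicate 3, where the level of Barx1 was 2.28 and 2.93 times that of Barx2, against 8.75 to 21.5 times in the other libraries. Twist2 was at 16.4, 18.8 and 23.7 CPM in control and at 22.4, 10.8 and 8.35 CPM in AMD3100-treated eSMGs, and its log2 fold change was −0.50. It was −1.04 without AMD3100 replicate 1, −0.25 without AMD3100 replicate 3 and −0.083 with replicates 1 and 2 only. Pitx3 and Msx3 did not pass the filter. Of the 11 reads of 50 bases drawn from the last 300 bases of each gene, 0 aligned as well elsewhere in the genome for any of the 8 genes or the relatives named here. For Msx2, only 10 of the 11 reads aligned at all. The check used another aligner and genome build than the deposited counts.

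Of 44 symbols chosen for other transcription factors of facial mesenchyme, the count tables held 43. Of these, 29 could be tested, and edgeR called 0 higher and 1 lower, against 0.397% higher and 1.28% lower of all genes. With replicates 1 and 2 only it called Alx4 higher (0.60) and Hand2 (−0.76) and Snai1 (−1.02) lower on the log2 scale. In that fit 613 of 13948 genes (4.395%) were called. With all 6 libraries, the median log2 fold change of the 29 genes was −0.053. The gene called was Snai1, a zinc finger repressor of epithelial genes in neural crest, at 38.3, 40.0 and 66.7 CPM in control and at 15.9, 23.0 and 34.1 CPM in AMD3100-treated eSMGs. All AMD3100-treated libraries lay below all control libraries. Its log2 fold change was −0.99 (SE 0.39, edgeR unadjusted p = 0.0309, adjusted p = 1), and it was −1.01 with the block (edgeR unadjusted p = 0.00102, adjusted p = 0.254). The unblocked call was lost without control replicate 3 (−0.68), AMD3100 replicate 1 (−0.76) or AMD3100 replicate 2 (−0.95). Of the 29, 7 lay below and 8 above the others in both replicate 3 libraries. Dlx4 and Nkx3-2 were at 0 counts throughout.

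The bHLH partners of TWIST1 and the ID proteins form a list of 7, all tested, of which edgeR called 0 and all 7 had a log2 fold change below 0 (median −0.11), where 7100 of all 13610 genes lay above 0. The E protein genes Tcf4, Tcf12 and Tcf3 were close to 0, at −0.038, −0.050 and −0.083. With replicates 1 and 2 only, edgeR called 2 of the 7, Id1 (−0.60) and Id3 (−0.75), both lower, against 613 of 13948 genes. Tcf4, an E protein and the most abundant, was at 506, 459 and 342.5 CPM in control and at 443.5, 404 and 425.5 CPM in AMD3100-treated eSMGs. Id3 had the lowest p of the list, at 107.7, 141 and 405 CPM in control and at 75.0, 73.9 and 157 CPM with AMD3100. It was lower in 3 of the 3 pairs, although AMD3100 replicate 3 lay above control replicates 1 and 2. Its log2 fold change was −1.10 (edgeR unadjusted p = 0.0747), and with the block −0.94 (SE 0.18, edgeR unadjusted p = 0.000413, adjusted p = 0.214), which passes the unadjusted threshold. Leaving out control replicate 3, the highest library, brought the unblocked value to −0.28, and leaving out AMD3100 replicate 3 brought it to −1.57. The latter was called (edgeR unadjusted p = 0.0185), as was the value of −1.43 without control replicate 1 (edgeR unadjusted p = 0.0362).

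Of 17 BMP pathway genes, 14 could be tested, edgeR called 0, and 7 were higher and 7 lower (median log2 fold change 0.031). Smad5, which transmits BMP signals, was the most abundant, at 105.9, 95.7 and 101 CPM in control and at 100.6, 135 and 131.5 CPM in AMD3100-treated eSMGs. The lowest p was that of the ligand gene Bmp7, at 22.0, 33.2 and 26.2 CPM and at 42.3, 41.2 and 35.2 CPM, with a log2 fold change of 0.54 (edgeR unadjusted p = 0.102). The groups did not overlap for 2 of the 14, against 7.44% of all genes. These were Bmp7, higher with AMD3100, and Bmp2, lower with AMD3100 (log2 fold change −0.70, edgeR unadjusted p = 0.205).

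Endothelin signalling patterns the ventral part of the arches, and its 3 genes were all tested. Ednra, the endothelin receptor of neural crest cells, was the 1 called, at 9.98, 19.0 and 8.28 CPM in control and at 3.63, 0.737 and 2.33 CPM in AMD3100-treated eSMGs, with no overlap of the groups. Of all genes tested, 1.68% were called and 7.44% had groups that did not overlap. The log2 fold change was −2.46 (SE 0.69, edgeR unadjusted p = 0.00631, adjusted p = 1). It rested on 63, 8 and 19 counts in the AMD3100-treated libraries, and lay between −3.02 and −2.02 with each library left out in turn. Ece1, which activates endothelin and was the most abundant of the 3, had a log2 fold change of −0.39. It was −0.76 with replicates 1 and 2 only (edgeR unadjusted p = 0.00815) and −0.79 without AMD3100 replicate 3, called in both, and −0.15 without AMD3100 replicate 2. The ligand gene Edn1 had a log2 fold change of 0.63 (SE 0.90).

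The mean standardized log2 CPM of the 7 genes was 0.49, 0.35 and 0.16 in control replicates 1, 2 and 3, and 0.22, −0.96 and −0.26 in the AMD3100-treated ones, so that it was lowest in AMD3100 replicate 2. These averages mix genes with opposite patterns. Among the 13603 other genes tested, those most like this profile over the 6 libraries were C530005A16Rik, Kcnu1, Nceh1, Mtcl1 and Kif23, with Pearson r from 0.990 to 0.997. Their mean levels were low, at 2.11, 1.57, 6.91, 4.43 and 19.1 CPM. The genes least like the profile were Rab11fip2, Dis3l2, Bspry, Rangap1 and Ubox5, with r from −0.980 to −0.975 and mean levels from 3.38 to 158 CPM. Both sets are the extremes of a search over all these genes. These values describe 6 libraries that share depth and replicate differences, and carry no test.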

How the data were processed

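RNA from 3 control and 3 AMD3100-treated eSMG tubes was read with a 3′ mRNA kit as single reads of 50 bases. The authors deposited raw counts per gene symbol for each library. Their processing notes name Bowtie2, edgeR and mm10 without versions, and the counter, annotation and strand setting are not given in the sources used here. No molecular identifiers are mentioned. Of 23282 lines, the 22 that repeated a symbol with identical counts were left out. Rn45s, the ribosomal RNA precursor, held between 16.2% and 32.5% of counts.

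Counts were fitted with edgeR 4.0.16 in R 4.3.3 (TMM, filterByExpr, glmQLFit without robust estimation, glmQLFTest, Benjamini-Hochberg over 13610 genes), with condition as the only term. The biological coefficient of variation was 0.579. Intervals (95%) were derived from each coefficient and the F statistic of its test. Log2 CPM used a prior count of 2. The fit was tested on simulated data.

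Labels of both groups share replicate numbers. Across genes, deviations from the group mean of same-numbered libraries correlated at 0.185, 0.171 and 0.584. However, control replicate 2 with AMD3100 replicate 1 gave 0.198, and control replicate 1 with AMD3100 replicate 2 gave 0.146. Deviations cancel out within a group, so the likeness of the last pair alone favours positive values among replicates 1 and 2. The correlations therefore cannot decide how replicates 1 and 2 pair. There the block follows the labels alone, its results depend on that pairing, and what the numbers mark is not stated.

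The 8 genes, lists and alternatives were chosen with earlier results of these data known. Named besides the 8 and their relatives were, per list, the most abundant gene, that of lowest p and those called, and the 5 genes most and least alike in profile. Other genes named (Alpl, Alx4, Bmp2, Hand2, Lum, Pecam1, Hbb-y, Edn1, Id1, Tcf3, Tcf12, Dlx4, Nkx3-2, Sp7, Ibsp, Bglap, Myod1) were chosen after their values were seen. Results of some genes that this rule names are not reported here. Alternatives were DESeq2 1.42.0, upper quartile scaling, no filter, the replicate block, replicates 1 and 2 only, no Rn45s, robust estimation, a version of the procedure in the paper (quantile normalization by limma 3.58.1 and an equal-variance test per gene) and each library left out. Positions and promoters are from RefSeq on GRCm38.p6. Reads were simulated from GENCODE vM1 and aligned to its genome with minimap2 2.31-r1302.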

Additional observations from a re-analysis of the deposited data

How the results depend on the processing

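Of 98 values of the 7 genes over 14 alternatives, 82 kept their direction and side of the threshold, and 14 changed sign without being called. The other 2 were those of Twist1 with the replicate block (−0.97) and without AMD3100 replicate 1 (−1.41), which were called. With the replicate block, the log2 fold change of Barx1 was −0.095 and that of Msx1 −0.63. It was −0.052 for Msx1 with replicates 1 and 2 only, and −0.024 for Barx1 by the version of the procedure in the paper. With each library left out in turn, values ranged from −0.43 to 0.49 for Barx1, from −1.13 to 1.19 for Msx1, from −0.18 to 0.39 for Pitx1 and from −0.37 to 0.11 for Osr2. They kept their sign for Osr1 (−0.30 to −0.18), Prrx1 (−0.41 to −0.17) and Twist1 (−1.41 to −0.63). The median of the 7 genes lay between −0.31 and −0.17 with a library left out. Called members numbered 1, Twist1, with the replicate block, and between 0 and 1 with a library left out (1 without AMD3100 replicate 1). Members whose groups did not overlap numbered 2 with replicates 1 and 2 only, where 37.2% of all genes did not, and between 1 and 3 with a library left out (3 without AMD3100 replicate 1, and 2 without control replicate 1 or AMD3100 replicate 3, where 13.9%, 13.9% and 21.1% of all genes did not). Genes called over all genes numbered 479 with DESeq2, 598 with the block, 613 with replicates 1 and 2 only, 429 by the version of the procedure in the paper and between 163 and 547 with a library left out (547 without control replicate 3 and 451 without AMD3100 replicate 3). At an adjusted p of 0.05 there were 5 with DESeq2 and 3 with the block. The replicate block changed the call of Twist1 among the 7 genes tested, and of Barx2, Id3, Krt15, Myod1 and Myog among the other genes named. The causes of these changes were not tested, and the block pairs replicates 1 and 2 by their labels alone. Msx1 and Msx2 had the fewest counts of the members, with 290 and 1 over the 6 libraries. The SD of Msx1 between replicates was also larger than that of 98.7% of the genes tested. The part of depth in this spread was not tested.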

Other observations

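Other cell types of the gland tubes were read from marker lists, with edgeR calling 0 genes in each when all 6 libraries were used. Neuron markers summed to 751, 609 and 797 CPM in control and to 666, 507 and 1214 CPM in AMD3100-treated eSMGs. The neurofilament gene Prph had the highest mean of that list through its replicate 3 libraries. Macrophage markers summed to 83.1, 62.0 and 187 CPM and to 81.9, 81.8 and 153 CPM. Of the 5 tested, 2 lay above and 1 below the others in both replicate 3 libraries. The rise of the sum there was mainly C1qa, a complement gene with the highest mean of the list through its replicate 3 libraries. C1qa was at 15.8, 14.0 and 122.7 CPM and at 23.0, 18.5 and 95.1 CPM. C1qb, another complement gene, did not share this, at 9.46, 9.91 and 10.3 CPM and at 7.83, 9.03 and 8.60 CPM. Without control replicate 3, C1qa was called higher (log2 fold change 1.63, edgeR unadjusted p = 0.0431). Its direction turned with the library left out, with a value of −1.31 without AMD3100 replicate 3. With all 6 libraries it was −0.16 (edgeR unadjusted p = 0.865). Endothelium markers, with Kdr the highest in mean but below Pecam1 in control, summed to 34.0, 23.8 and 28.2 CPM and to 19.4, 44.4 and 15.6 CPM. Globin and other erythroid markers, led by Hba-a1, summed to 4839 and 5785 CPM in control replicates 1 and 3, were highest in control replicate 2, and summed to 4803, 7369 and 7513 CPM in AMD3100-treated eSMGs. With replicates 1 and 2 only, edgeR called Hbb-y and Hba-x lower, with log2 fold changes of −1.04 and −1.35. In that fit 613 of 13948 genes were called. Over all 6 libraries these 2 values were −0.096 and −0.54, and both genes were higher with AMD3100 in replicate 3. Hba-x was at 0.51 without control replicate 2. With the replicate block, edgeR called Myog lower in AMD3100-treated eSMGs (log2 fold change −1.17, unadjusted p = 0.00442, adjusted p = 0.468), where it was −0.24 without the block, with a range from −4.09 to 2.09 as each library was left out, and −1.77 with replicates 1 and 2 only (edgeR unadjusted p = 0.000351). The lowest of these, without AMD3100 replicate 3, was called as well. The fit with the block also called Myod1 lower. Without the block, 4 of the 6 muscle markers were higher and 2 lower with AMD3100 (median log2 fold change 0.46), and edgeR called 0 of them. Krt15 was called higher by edgeR in the fit with the block (log2 fold change 0.62, unadjusted p = 0.0240, adjusted p = 0.703). Its value was 0.72 without the block (edgeR unadjusted p = 0.0799). The value of Krt15 came mainly from replicate 3, and with replicates 1 and 2 only it was 0.21 (edgeR unadjusted p = 0.141).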
